A study of Drosophila melanogaster with 2 samples.

Results

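GstE13, GstO2, GstD1 and GstE12 are 4 glutathione transferase genes of Drosophila melanogaster whose promoters carried a peak of ERR, the fly oestrogen-related receptor, in whole embryos. They were chosen by that measured binding, so their peak signals are given as a description and no test was run on them. They are 4 of the 38 glutathione transferase genes considered here and of 13986 protein-coding genes in the gene models. A region was assigned to a gene where its summit lay inside the gene or within 2000 bp of any of its transcript starts. The embryos came from transgenic flies in which ERR carried green fluorescent protein (eGFP) at its C-terminus, and chromatin was precipitated through that tag (ChIP-seq). Embryos of both sexes were collected together between 0 and 24 h of development. Chromatin was sheared by sonication, with a stated fragment range of 200 to 800 bp. The 2 biological replicates, numbered 2 and 3, form 1 group, and untagged or input chromatin was not analysed here. All cells of the embryo were sampled at once, so binding in fewer cells and weaker binding in each cell cannot be told apart.

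Glutathione transferases join the thiol tripeptide glutathione to electrophilic compounds, or use it to reduce or isomerise them. The Delta and Epsilon classes are expanded in insects and are known for the detoxification of plant toxins, insecticides and products of lipid oxidation. Omega enzymes carry out thiol transfer and dehydroascorbate reduction. In flies many genes of this kind are switched on under oxidative stress by CncC and its partner Maf-S, which bind the antioxidant response element and are held in check by Keap1. ERR is a nuclear receptor known in fly embryos for the activation of genes of carbohydrate metabolism. It binds as a monomer to AGGTCA with an extended 5' flank, searched here as TNAAGGTCA.

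The letters under the peaks at GstO2 and GstD1 are shown first, because GstO2 was the member with an ERR motif at its summit and GstD1 was one without. Both are given 5' to 3' along the coding strand of the gene, from the NCBI release 6 genome, which is the dm6 build. The GstO2 stretch (chr3L:8523292-8523431, minus strand) runs from the start of the coding sequence into the first intron. Its first capitals mark TNAAGGTCA and its second mark TGACNNNGC, the antioxidant response element.
GstO2: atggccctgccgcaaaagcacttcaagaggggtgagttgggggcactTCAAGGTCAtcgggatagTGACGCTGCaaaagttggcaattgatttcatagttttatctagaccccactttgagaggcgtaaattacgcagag
The GstD1 stretch (chr3R:12369353-12369633, minus strand) lies wholly upstream of the gene. Its capitals mark GAGAGAG, the motif of the GAGA factor, which reads CTCTCTC on this strand.
GstD1: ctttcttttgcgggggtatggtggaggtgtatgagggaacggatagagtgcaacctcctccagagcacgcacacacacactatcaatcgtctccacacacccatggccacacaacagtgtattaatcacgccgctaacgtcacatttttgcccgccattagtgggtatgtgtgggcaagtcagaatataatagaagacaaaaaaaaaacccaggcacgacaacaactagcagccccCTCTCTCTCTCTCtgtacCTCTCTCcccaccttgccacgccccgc

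To show how the GstO2 site reads beside stronger ones, it is set with the sites at Glys, Hex-A and Eno, 3 of the optimal peaks with TNAAGGTCA and a higher signal than that of GstO2. These genes encode glycogen synthase, a hexokinase and enolase. Capitals mark the motif and lower case its 10 flanking bases on either side, each on the strand that carries the motif.
GstO2 (chr3L:8523366-8523394, minus strand): tgggggcactTCAAGGTCAtcgggatagt
Glys (chr3R:15146936-15146964, plus strand): aaaagtcaaaTAAAGGTCAgtggcggcgt
Hex-A (chrX:9585747-9585775, minus strand): gaaggaacctTGAAGGTCAaaaactgaaa
Eno (chr2L:1727296-1727324, plus strand): aagctactttTAAAGGTCAgacccaaagt
The middle of the site lay 12 bp from the summit at GstO2, against 5 bp at Glys, 6 bp at Hex-A and 52 bp at Eno. Optimal signals of these peaks were 225 at GstO2, 712 at Glys, 660.3 at Hex-A and 428 at Eno.

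Signals below are in the peak caller's own units. The lists used were on the dm6 build. The relaxed lists of each replicate and of the pooled replicates held 30000 regions each. The optimal list held the 2892 regions retained after comparison of the replicates by the irreproducible discovery rate, with a median signal of 97.8. Signals of the optimal list began at 69.2, and ranks count from the highest signal. The lists are not scaled to each other, and the read depth behind them is unknown. Replicate 2 was typically the higher: its signal was 1.32 times that of replicate 3 at the median optimal peak (quartiles 1.09 and 1.63).

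GstE13, an Epsilon class gene, had the strongest peak of the 4 and one of the strongest in the embryo. Its signal was 349.75 in replicate 2 and 247 in replicate 3, and 597 in the optimal list. It ranked 33 in replicate 2, 42 in replicate 3 and 35 in the optimal list, so the order held closely between replicates. The optimal signal was 6.10 times the median of all optimal peaks. The peak (2R, 9122019 to 9122361 on dm6) was 343 bp wide. Its summit lay in the 5' UTR of GstE13 (FBgn0033381; 2R, 9122125 to 9123309, plus strand), 57 bp downstream of a start. Summits of the replicates were 9 bp apart. The gene Su(var)2-10, on the same strand, ends 124 bp before GstE13, and no other gene lay under the peak. No other coding gene started within 2000 bp of the summit, and no other gene of any kind within 500 bp.

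Within 2000 bp of its starts, the other regions of GstE13 were far weaker. The next region in the pooled list had a signal of 58.0 and lay in the coding sequence, and it overlapped the main peak. In replicate 3 the matching region had 44.6, and in replicate 2 the next region of the gene had 12.8. The main peak was 10.3 times the next region in the pooled list, 27.4 times in replicate 2 and 5.55 times in replicate 3. The remaining regions within that reach had at most 23.7 in the pooled list, 12.7 in replicate 2 and 11.3 in replicate 3.

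GstO2, an Omega class gene, had the second strongest peak. The signal was 141 in replicate 2 and 87.6 in replicate 3, and 225 in the optimal list, with ranks of 197, 320 and 241. The peak (3L, 8523294 to 8523496) was 203 bp wide, narrower than most: 328 of the 2892 optimal peaks were no wider, and 77.7% had the list's common width of 404 bp. The summit fell in the first intron of GstO2 (FBgn0035906; 3L, 8521429 to 8523501, minus strand), 109 bp downstream of its start. Replicate summits were 11 bp apart, on either side of an exon boundary, with that of replicate 2 in coding sequence and that of replicate 3 in the intron. GstO1 lies 240 bp upstream on the same strand. The summit was 1474 bp from the start of GstO1, and foi, which encodes a zinc transporter, also starts within 2000 bp.

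A weaker region lay upstream of GstO2, with signals of 39.4 in replicate 2, 21.4 in replicate 3 and 64.0 in the pooled list. It was 114 bp from the start of foi in the pooled list, 492 bp from that of GstO1 and 1857 bp from that of GstO2. At rank 3366 it was just outside the optimal list, and it was the region of highest signal outside that list at any of the 4 genes. The GstE12 peak, at 1.46 times the lowest optimal signal, was the nearest member inside it.

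GstD1, the Delta class gene long used as a reporter of oxidative stress and known for DDT-detoxifying activity, had a peak that differed between the replicates. The signal was 97.8 in replicate 2 and 31.7 in replicate 3, and 118 in the optimal list. The ranks were 465, 3023 and 987, so that replicate 3 alone would not place it among the 2892 highest regions. The ratio of replicate 2 to replicate 3 was 3.08, exceeded by 51 of the 2888 optimal peaks with a region in both replicates (1.77%). Summits of the replicates lay 124 bp apart, 159 bp upstream of the start in replicate 2 and 283 bp upstream in replicate 3. Regions whose summits paired within 100 bp of the optimal summit had 34.9 in replicate 2 and 31.7 in replicate 3, a ratio of 1.10. The strong region of replicate 2 overlapped that of replicate 3, but no replicate 3 summit lay within 100 bp of its own.

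The optimal peak of GstD1 (3R, 12369331 to 12369734) was 404 bp wide, with a summit 265 bp upstream of the only start of the gene (FBgn0001149; 3R, 12367817 to 12369268, minus strand) and in no gene. The next coding gene on that side, GstD2, lies 2702 bp away on the opposite strand. Each replicate list held 2 regions overlapping the peak, which summed to 133 in replicate 2 and 54.9 in replicate 3, a ratio of 2.42. Inside the gene the pooled list held regions of 37.5, in the coding sequence, and 27.7, in the 5' UTR. The highest region of GstD1 was 3.15 times the next in the pooled list and 2.80 times in replicate 2, but 1.36 times in replicate 3. In both replicates a region also lay further upstream, with signals of 13.5 in replicate 2 and 12.5 in replicate 3. GstD1 had more regions in reach than the other members in replicate 3, where it had 5.

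GstE12, the other Epsilon class member, had the weakest of the 4 peaks. Its signal was 68.2 in replicate 2 and 39.3 in replicate 3, and 100.7 in the optimal list, with ranks of 1029, 1904 and 1369. The optimal signal was 1.03 times the median of all optimal peaks, so the peak was a typical one. The peak (2R, 24767952 to 24768355) was 404 bp wide and centred on the upstream start of GstE12 (FBgn0027590; 2R, 24766718 to 24768172, minus strand), with a summit 18 bp downstream in the 5' UTR. Summits of the replicates were 68 bp apart and fell on either side of that start. The peak also reached into Eps-15, which encodes an endocytic adaptor and ends 141 bp before GstE12 on the same strand. In replicate 3 no other region was in reach, and in replicate 2 the others had 15.6 and 11.2.

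**Figure D1:**
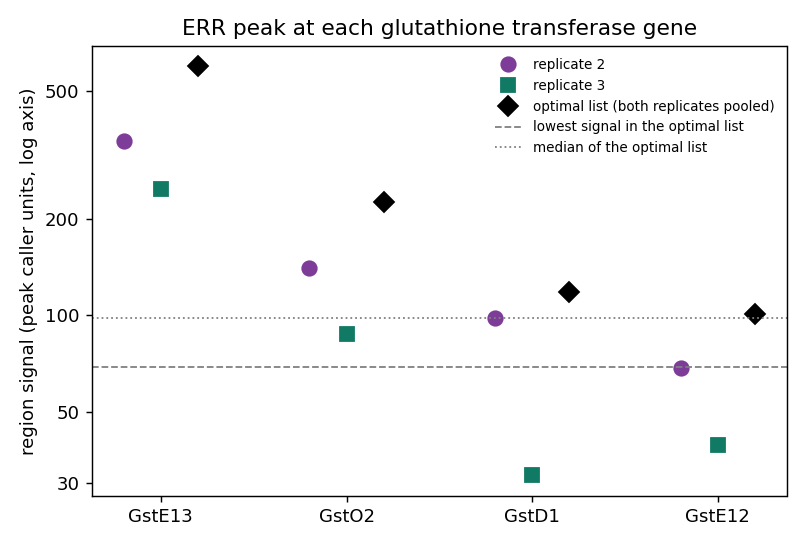
Signal of the highest region at each gene, on a log axis in the peak caller's units, in replicate 2 (circles), replicate 3 (squares) and the optimal list (diamonds). The dashed and dotted lines, which apply to the optimal list, stand at its lowest (69.2) and median (97.8) signal, and GstD1 shows the widest gap between replicates, 97.8 against 31.7.

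**Figure D2:**
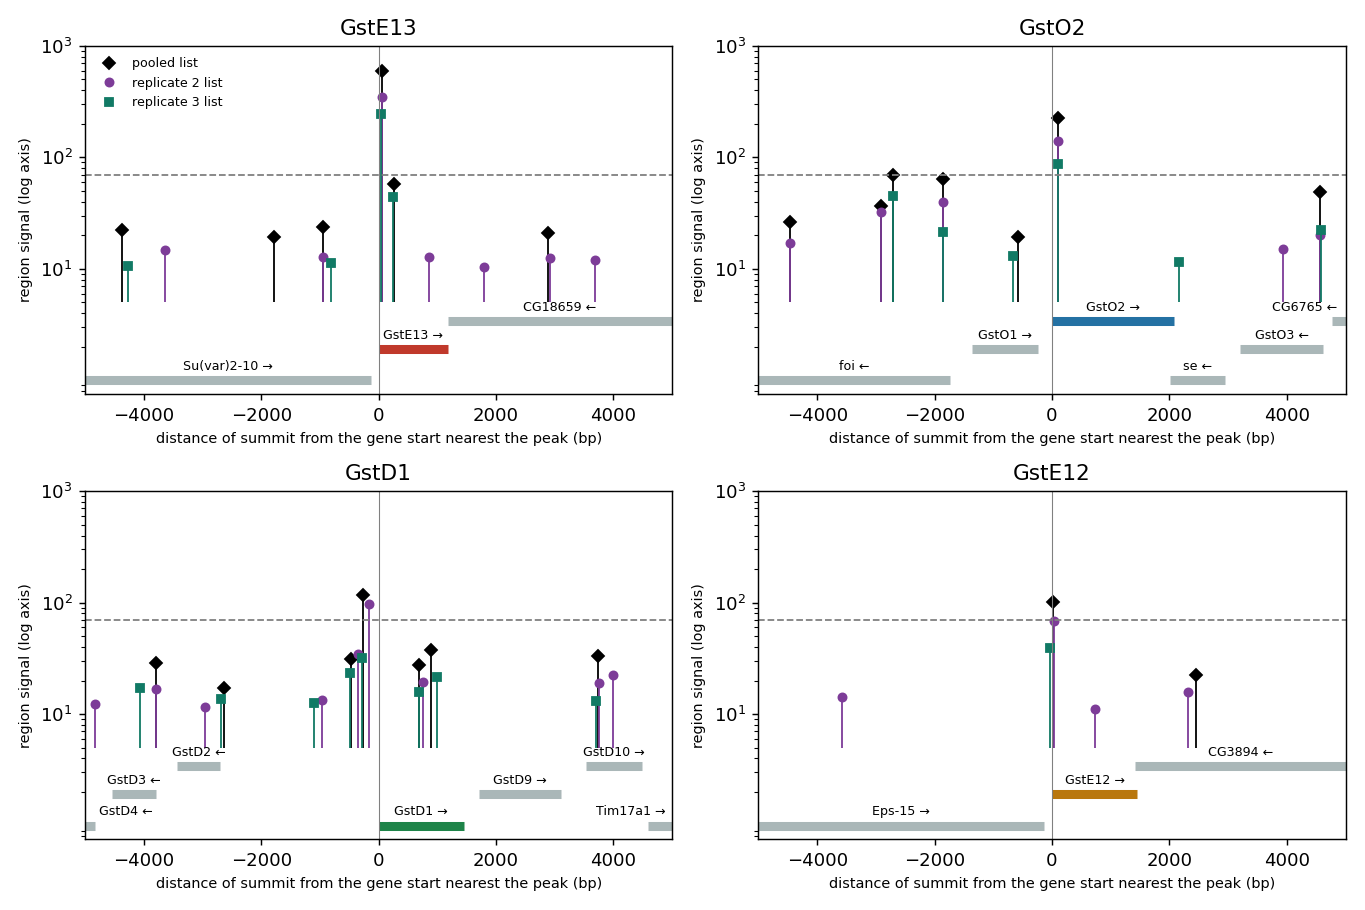
Regions within 5 kb of the gene start nearest each peak, with summit distance from that start on the x axis (bp, positive downstream) and signal on a log y axis, in the pooled list (diamonds) and both replicate lists. The dashed line is the lowest optimal signal and bars below are coding genes with arrows for direction. In the pooled list and in replicate 2, one region rises above the others at each gene. At GstD1 the replicate 2 and pooled summits stand apart, and in replicate 3 the highest region (31.7) is close to the next (23.2).

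The order of optimal signal was GstE13, GstO2, GstD1 and GstE12. In replicate 2 it was the same, and in replicate 3 GstE12 stood above GstD1 (39.3 against 31.7). GstE13 was above GstO2, and GstO2 above the other 2 genes, in both replicates. Values of GstE13 and GstO2 did not overlap across replicates, but GstO2 in replicate 3 (87.6) was below GstD1 in replicate 2 (97.8). The replicate ranges of GstD1 (31.7 to 97.8) and GstE12 (39.3 to 68.2) overlapped, and the order of these 2 genes differed between the replicates. Because the lists are not scaled to each other, these ranges also hold the difference between lists. The ratio of replicate 2 to replicate 3 was 1.41 at GstE13, 1.61 at GstO2 and 1.73 at GstE12. After each replicate was divided by its median over the optimal peaks, the ratios were 1.07, 1.22 and 1.32 for these genes and 2.34 for GstD1. The optimal signal was close to the sum of both replicate signals, at 0.999 of it for GstE13, 0.984 for GstO2 and 0.936 for GstE12. For GstD1 it was 0.912 of the sum, against a median of 0.995 over all optimal peaks (quartiles 0.972 and 1.01).

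**Figure D3:**
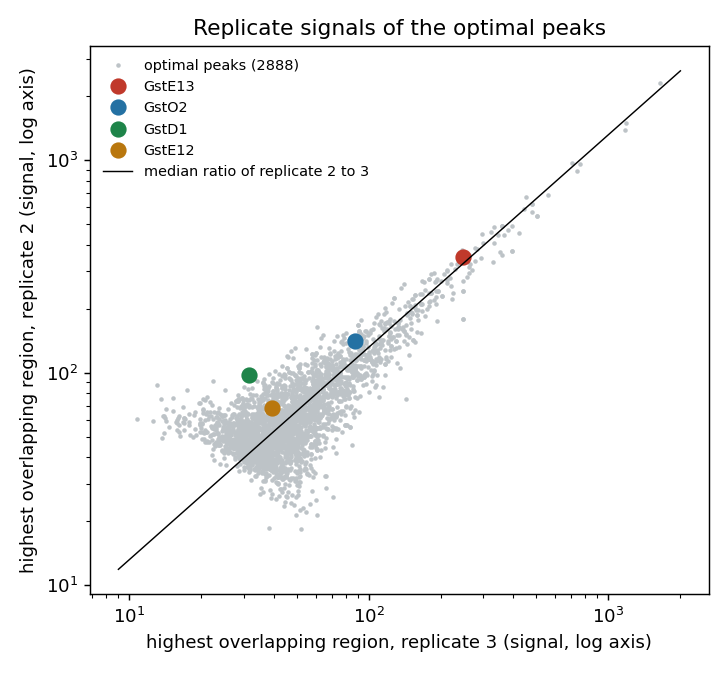
Signal of the highest overlapping region in replicate 3 (x) and replicate 2 (y), both on log axes, for the 2888 optimal peaks with a region in both lists (grey) and the peaks of the 4 genes (colours). The line marks the median ratio of 1.32; GstE13, GstO2 and GstE12 lie near it, and GstD1, at a ratio of 3.08, lies above.

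Other peaks matched these in signal in both replicates. Likeness was the sum of absolute log2 differences in replicate 2 and replicate 3, which is a measure over 2 samples and a description. The peaks most like that of GstE13 were nearest tara (0.096), Sox14 (0.11) and Tcs5 (0.12), and those most like that of GstO2 were nearest Eip75B (0.043), CG1737 (0.073) and SMC1 (0.077). Those most like that of GstE12 were nearest CG3625 (0.0068), nis (0.0084) and Best2 (0.026). The GstD1 peak, with its uneven replicates, was most like those nearest Alh (0.026), Dref (0.082) and bgcn (0.19). All 3 of these lay within 99 bp of a start. Their signals were 30.6 to 34.0 in replicate 3 and 91.7 to 100.04 in replicate 2. This gap follows from the way they were picked and is no separate result.

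The sequence at the summits was not used to choose the genes. In windows reaching 100 bp to either side of each optimal summit, TNAAGGTCA on either strand was found at GstO2, or 1 of the 4 genes, beside 1.63% of all optimal windows. GstO2 stood 9th by signal among the 47 optimal peaks that carried it. Its site lay in the first intron, on the strand of the gene and 121 bp downstream of the start. Allowing 1 mismatch to TNAAGGTCA still gave only GstO2, beside 15.1% of all optimal windows. The shorter AAGGTCA and AGGTCA, both part of TNAAGGTCA, matched at that same site of GstO2 and at no other member. They were found in 3.80% and 6.71% of all optimal windows. Of the 34 optimal peaks with a higher signal than that of GstE13, 3 held TNAAGGTCA. In wider windows, reaching 250 bp to either side, GstE13 had a match with 1 mismatch 136 bp from its summit. GstD1 and GstE12 had no match with up to 1 mismatch there. Such a match was found in 29.5% of all optimal windows of this width.

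The antioxidant response element TGACNNNGC also lay in the 100 bp window of GstO2 and in none of the other 3, beside 6.74% of all optimal windows. It was 30 bp from the summit and on the same strand as the ERR site, and the 2 sites did not overlap. AAGGTCA can in general share bases with TGACNNNGC and with GGTCACACT. The DREF motif TATCGATA was absent from the 100 bp windows of all 4 genes, beside 5.53% of all optimal windows. So was the M1BP motif GGTCACACT, beside 2.84%. GAGAGAG (7.30%) and the E-box, written CACGTG (3.35%), were absent there too. In the 250 bp windows GAGAGAG was found at GstD1 and GstE12, beside 17.6% of all optimal windows. At both genes the matches, 5 at each and mostly overlapping, lay between 108 and 126 bp upstream of the start. A match describes the letters only, and a window without one says nothing of whether a factor binds there. GC content of the 100 bp windows was 33.3% at GstE13, 43.8% at GstO2, 48.8% at GstD1 and 55.2% at GstE12, against a median of 40.3% over all optimal peaks.

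The other glutathione transferase genes showed where in the family such peaks were found. By the same rule 4 of the 34 others had an optimal summit, namely GstO1, GstD9, GstS1 and GstT4, against 22.5% of all protein-coding genes. GstD9 was counted through the GstD1 peak, and GstO1 through the GstO2 peak and a second, weaker optimal peak. Within 500 bp of a start, 2 of the 34 others had one (GstS1 and GstT4), against 15.1% of all protein-coding genes. The 34 leave out the 4 genes chosen for their peaks, and that choice lowers their share. With those genes counted, 6 of the 38 in the family had a promoter peak, beside the same 15.1%. No set test was made. GstS1, the Sigma class enzyme known for conjugating the lipid peroxidation product 4-hydroxynonenal, had signals of 47.0 in replicate 2, 32.3 in replicate 3 and 78.0 in the optimal list, at a summit 40 bp from a start. GstT4, of the Theta class, had 48.2, 48.4 and 96.8 at a summit 358 bp upstream. Both stood below GstE12 in the optimal list, although in replicate 3 GstT4 was above GstE12 and GstD1, and GstS1 was above GstD1.

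The neighbours of GstO2 and GstD1 in their clusters had weaker regions. Gst genes within 100 kb were GstO1, GstO3 and se around GstO2 and the other 10 Delta genes around GstD1, 13 in all. Of these 13, 2 (GstO1 and GstD9) had an optimal summit in reach, beside 22.5% of all protein-coding genes. In the 500 bp around a start 0 had one, beside 15.1%. The 13 also leave out the genes chosen for their peaks. Apart from the GstO2 peak itself, the highest pooled signals at the 3 Omega neighbours ran from 48.9 to 69.5, so that the GstO2 peak was 3.24 times the highest of them. That highest region was an optimal peak of rank 2864, almost the last in the list, 1343 bp upstream of GstO1 and nearer to the start of foi (965 bp). GstO3 had a region of 48.9 that lay 51 bp from its start. The gene se, or sepia, which makes a precursor of the red eye pigments, had no region within 500 bp of its start in the pooled list.

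The Delta neighbours were weaker still. Apart from the GstD1 peak, 8 of the 10 had a region in the pooled list, from 21.0 to 37.5. Of all protein-coding genes 72.3% had one. Some neighbours share a region: GstD2, GstD3 and GstD4 that of 28.5, and GstD7 and GstD8 that of 21.0. The highest, given to GstD9 by distance, is the region of 37.5 in the coding sequence of GstD1 itself. The highest away from GstD1 was 33.3, at GstD10. GstD5 and GstD6 had none. The 7 genes from GstD2 to GstD8 had at most 28.5 in the pooled list, at most 16.9 in replicate 2 and at most 17.2 in replicate 3. In replicate 3 the GstD1 peak (31.7) thus remained above the highest of these 7 by less than in replicate 2 (97.8). GstD9, 253 bp from GstD1 on the same strand, was within reach of the GstD1 peak at 1969 bp and had no pooled region within 500 bp of its own start.

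GstE13 and GstE12 had no Gst gene within 100 kb. The nearest was GstT1, 483 kb from GstE13, and GstE11, 6262 kb from GstE12. Both thus lay apart from the main Epsilon cluster, where GstE1 to GstE10 occupy 13.2 kb. All 10 genes of that cluster had regions in reach, and their highest signals ran from 37.3 to 43.9 in the pooled list, from 15.6 to 28.0 in replicate 2 and from 15.4 to 28.2 in replicate 3. Several of these genes share a region, because the cluster is denser than the reach of 2000 bp. GstE13 and GstE12 were above all 10 in each replicate. GstE11 had 23.0 in the pooled list. GstE14 (noppera-bo), the Epsilon gene known for its role in the making of the moulting hormone ecdysone, had 18.6. Over all 30 other family genes with no optimal summit, 28 had a pooled region, with highest signals from 18.6 to 53.7. By the same rule 72.3% of all protein-coding genes had a region in the pooled list, so having one is common.

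**Figure D4:**
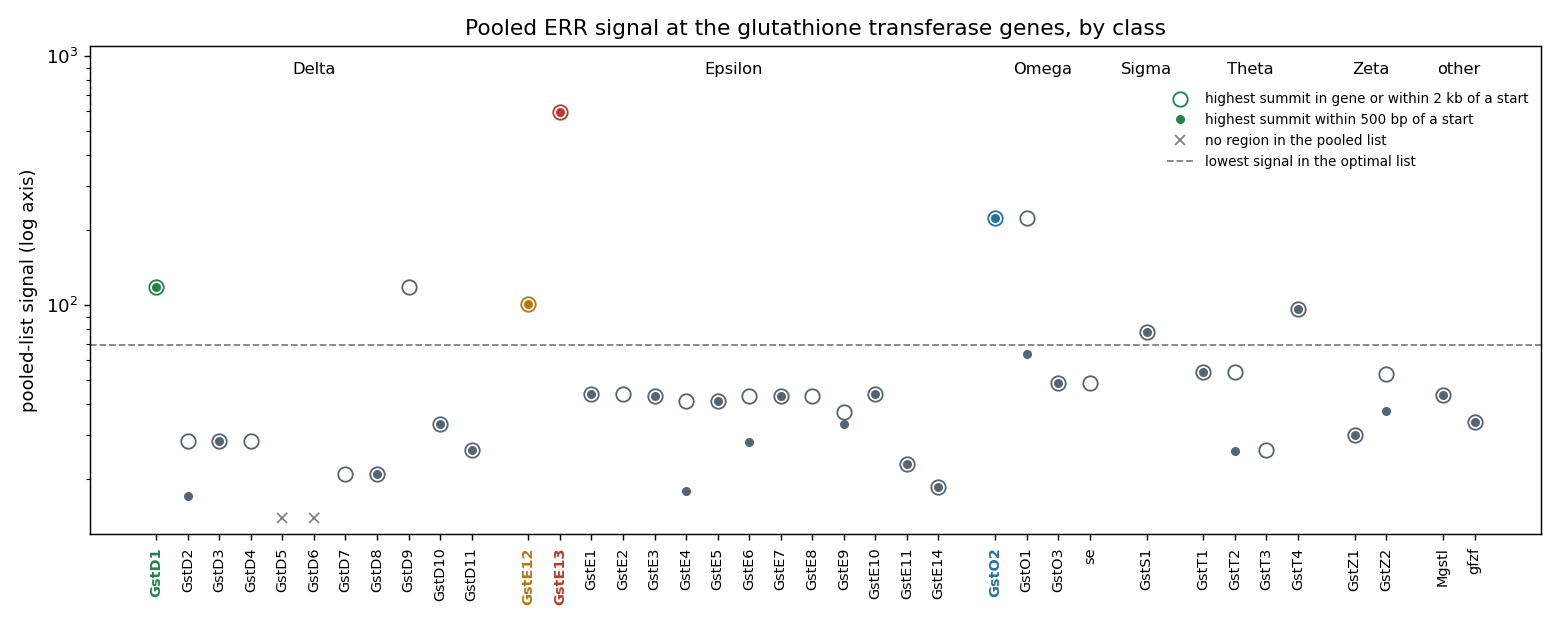
Highest pooled-list signal at each of the 38 glutathione transferase genes, by class, on a log axis (open circles for a summit in the gene or within 2 kb of a start, dots within 500 bp, crosses for no region). The dashed line is the lowest optimal signal; the 4 genes named in colour stand above it, with GstS1 and GstT4 the other genes with dots above it.

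Genes of glutathione synthesis and breakdown, thiol reduction and antioxidant defence, oxidant response and NADPH supply were described in the same way. Of 27 such genes in 4 lists, 10 had an optimal summit in reach (37.0%, beside 22.5% of all protein-coding genes), and for 5 it was in the 500 bp around a start (18.5%, beside 15.1%). In the oxidant response list, 2 of 4 had an optimal summit in reach (50%), and both also had one within 500 bp of a start. These were cnc, which encodes CncC, with 62.8 in replicate 2, 56.0 in replicate 3 and 118 in the optimal list, and Keap1, with 76.5, 47.5 and 122. The highest peak at Keap1 was nearer to the start of kuk, at 499 bp, than to its own. In all Keap1 had 4 optimal summits in reach, 2 of them within 500 bp of a start of its own. The gene cnc had 3, also with 2 within 500 bp. The Maf-S gene maf-S and ref(2)P had none.

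In the NADPH supply list 3 of 5 had an optimal summit (60%, beside 22.5% of all protein-coding genes). Within 500 bp of a start 1 of 5 had one (20%, beside 15.1%), namely Men. Zw, encoding glucose-6-phosphate dehydrogenase, had signals of 262 in replicate 2, 139.8 in replicate 3 and 407 in the optimal list, at a summit 1110 bp from a start. Men, encoding malic enzyme, had 137, 112 and 242, at a summit 958 bp from a start. Pgd, encoding 6-phosphogluconate dehydrogenase, had 63.8, 58.9 and 95.2, at a summit 987 bp from a start. Zw was above GstO2 in the optimal list and in each replicate. Men was above GstO2 in the optimal list and in replicate 3, but below it in replicate 2 (137 against 141). GstE13 was above Zw and Men in the optimal list and in each replicate.

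Optimal signals at genes of glutathione synthesis and breakdown were lower than those at Zw, Men and Pgd. In the synthesis and breakdown list 2 of 5 had an optimal summit (40%, beside 22.5% of all protein-coding genes). Within 500 bp of a start 1 of 5 had one (20%, beside 15.1%). Gclm, the modifier subunit of the first enzyme of glutathione synthesis, had 49.2 in replicate 2, 42.1 in replicate 3 and 90.6 in the optimal list, in its 5' UTR. Ggt-1, a gamma-glutamyl transferase, had 53.4, 39.4 and 89.99, at an intronic summit nearer to the start of Wnt5. Gclc, the catalytic subunit, had 64.9 in the pooled list, below the optimal list. In the thiol reduction list, which also held superoxide dismutases and catalase, 3 of 13 had an optimal summit (23.1%, near the 22.5% of all genes). Within 500 bp of a start 1 of 13 had one (7.69%, beside 15.1%). The highest was superoxide dismutase Sod1 with 66.6, 66.6 and 129. The peroxiredoxin genes Prx2 and Prx6a had 50.2 and 42.9 in replicate 2 and 45.2 and 33.8 in replicate 3, the second at a summit 26 bp from the start of RabGGTb. Thioredoxin reductase, which takes the place of glutathione reductase in flies, had no optimal summit at Trxr1 or Trxr2.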

How the data were processed

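Peak regions were used as the authors deposited them, in the narrowPeak layout on dm6. Per the notes deposited with the files, the optimal list derives from the lists of both replicates and of the pooled replicates. Signal is the value the authors deposited for a region, and lists were not rescaled. The deposited −log10 q stood at 3.89 for all optimal peaks of the 4 genes, so ranks rest on signal. The aligner and the peak caller were not given in the sources used here, with no versions either. Without read counts, depth is unknown. Lists on dm3 were not used here.

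Gene models were from Ensembl release 115. A replicate's value at a peak is that of its highest region overlapping by at least 1 bp. Motifs were searched on both strands. Trx-2, PHGPx and Idh1 were matched by synonym to Trx2, Gtpx and Idh. Python 3.11.15, pandas 2.3.3, numpy 2.4.6 and matplotlib 3.10.9 were used, and the scripts were tested on simulated data.

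The genes and lists were chosen with earlier results of these data known. No statistical test was made, because the genes were chosen for their peaks and the samples form 1 group. Genes named are the 4 genes, their family, genes with starts near a peak, the 3 peaks most like each, and listed pathway genes with an optimal peak. Glys, Hex-A, Eno and the pathway genes without an optimal peak were named after their values were seen. Alternatives were other reaches, a stricter list, each replicate alone, the pooled list, region overlap, motif windows and variants, and other pairings of the replicates. AGGTCA alone and the summed replicate ratio were added after seeing the data.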

Additional observations from a re-analysis of the deposited data

How the results depend on the processing

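Of 59 alternative values, 39 stayed within the replicate spread or within 1.5 times the reported value, 20 moved and 0 reversed. The causes were not tested. Signals in a single replicate ran from 247 to 349.75 at GstE13, from 87.6 to 141 at GstO2, from 31.7 to 97.8 at GstD1 and from 39.3 to 68.2 at GstE12, below the optimal values, which lie near the sum of both replicates. All 4 genes kept a peak under every reach and in the higher-signal 50% of peaks. This count could not fall there, because the genes were chosen for promoter peaks. Their summits lay at most 265 bp from a start, with ranks from 35 to 1369 of 2892. Such fixed values are among the 39. Without replicate 2 GstD1 lost its place, which left 3. The GstD1 ratio of 3.08 was 1.10 with summits within 100 bp. Other family genes with a peak, 4 as reported, numbered 2 with a reach of 1000 bp, 2 within 500 bp of a start and 2 in the higher-signal 50%. They numbered 32 in the pooled list and from 2 to 6 without each replicate (2 without replicate 2: GstO1 and GstT4). Neighbours with a peak, 2 as reported, numbered 0 at 1000 bp, 0 at 500 bp, 11 in the pooled list and from 1 to 2 without each replicate (1 without replicate 2: GstO1). Pathway genes with a peak, 10 as reported, numbered 5 within 500 bp, 5 in the higher-signal 50%, 24 in the pooled list and from 11 to 14 without each replicate. Shares of all protein-coding genes with a peak moved too. They were 22.5% as reported, 19.4% at 1000 bp, 15.1% within 500 bp of a start and 12.8% in the higher-signal 50%. Without replicate 3 the share was 22.8%, without replicate 2 it was 21.7%, and in the pooled list it was 72.3%. The count of members with the ERR motif was 1 under each of its 7 alternatives. In the wider window and with the looser motifs it could not fall, because these include the match at GstO2. With 1 mismatch and the wider window together, which was not among the 7, it was 2 (GstE13 and GstO2). No paired analysis was possible because the samples form a single group. Without read counts, small differences between weak regions cannot be judged.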
